A study of Mus musculus with 12 samples.

Results

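The T-box, GATA and mesodermal transcription factors are 35 genes chosen by name, and each was found once among the 55385 genes of the deposited count table. They were 14 T-box factors, 6 GATA factors, 10 basic helix-loop-helix (bHLH) factors and 5 zinc finger factors. RNA-seq libraries of polyadenylated RNA were made from the whole cerebellum of C57BL/6 mice at postnatal day 14: 3 from EED-/- mice, which are conditional knockouts of Eed, and 3 from wild-type (WT) mice. The Cre driver and the deleted part of Eed are not given in the labels. Nothing there ties each library to an animal of its own, so a p-value here reflects the variation among libraries, which may be technical. The series further lists 6 ChIP-seq samples of the same tissue, which were not analysed here.

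Eed is a core subunit of Polycomb repressive complex 2, which methylates histone H3 at lysine 27 and keeps developmental regulators silent in tissues that do not use them. T-box factors bind DNA through the T domain and GATA factors through zinc fingers, while bHLH factors such as Hand2 and Twist1 bind E-boxes as dimers with E proteins. Most of the 35 genes are known from the heart, limbs, somites, kidney, blood or cranial mesenchyme of the embryo. A few also act in neurons. Eomes marks unipolar brush cells, excitatory interneurons of the cerebellar granular layer, Tbr1 marks glutamatergic neurons of the cerebellar nuclei, and Gata2 and Gata3 act in neurons of the midbrain, hindbrain and spinal cord.

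The libraries held 19621814 to 20366173 estimated counts each. CPM is the relative count after TMM scaling, with factors of 1.01 to 1.05 in EED-/- and 0.951 to 0.981 in WT libraries. Before these factors, 1 CPM is about 20.2 counts at the median library size, so it is somewhat more counts in EED-/- than in WT. Eed was 11.6, 9.31 and 11.3 CPM in EED-/- replicates 1 to 3 and 20.1, 26.6 and 23.5 CPM in WT replicates 1 to 3 (log2 fold change -1.12, adjusted p = 0.0015), so every EED-/- library was below every WT library. Of 18091 genes with enough counts to be tested, 25.8% were called at an adjusted p under 0.05, 11.7% higher and 14.1% lower in EED-/-. That is 2125 genes higher and 2544 lower. With upper-quartile scaling the split was 2828 higher and 1786 lower, and with library size only it was 2641 higher and 1865 lower. Granule neuron markers were lower in EED-/- in 10 of 10 cases, with a median log2 fold change of -2.92. Mitochondrial genes took 7.16%, 6.45% and 8.04% of counts in EED-/- and 3.21%, 6.37% and 5.22% in WT replicates 1 to 3, so every EED-/- library was above every WT library and WT replicate 1 was the lowest; the part of this in the results was not tested.

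Of the 35 factors 22 could be tested, and 9 rose, 3 fell and 10 were not called in EED-/- cerebellum. For comparison, a rise was called in 11.7% and a fall in 14.1% of the 18091 genes that entered the test. The 9 that rose were Hand2, Gata4, Gata6, Gata3, Tbx15, Twist1, Tbx18, Tbx20 and Snai2. The 3 that fell were Eomes, Tbx6 and Tcf15. The median log2 change of the tested factors was 0.60, against -0.03 over all tested genes. It was also 0.60 with Hand2 set at its lower bound. These counts describe the group only. Hand2, Gata4, Gata6, Snai1 and Snai2 met the count minimum in every library only in the EED-/- group, and Tbx6 and Tcf15 only in the WT group, so their passing the filter favoured a difference. Upper-quartile scaling moved the median of all genes up by 0.117 on the log2 scale. Under it 10 factors were higher and 3 lower.

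**Figure D1:**
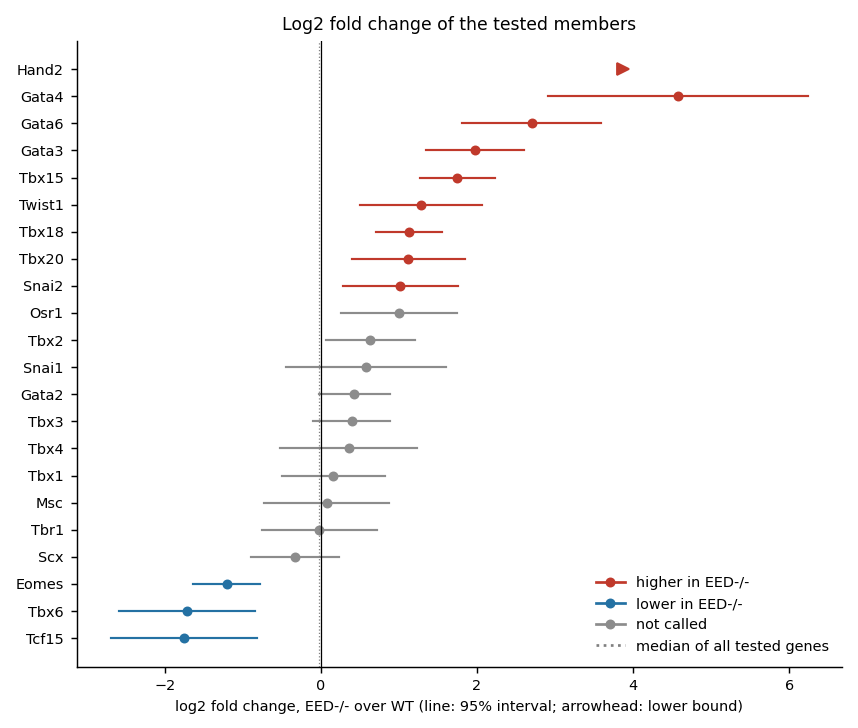
Log2 fold change of EED-/- over WT for the 22 tested factors, ordered from highest to lowest; points are fitted values, lines are 95% intervals, the arrowhead is the lower bound of Hand2, which had 0 counts in WT, and the dotted line is the median of all tested genes at -0.03. The 9 red and 3 blue factors passed the adjusted p of 0.05, and the grey ones did not.

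RefSeq promoter windows of GRCm38.p6 (250 bases before the transcription start to 50 after it) were found for 21 of the 35 factors, 25 windows in all. The windows below belong to 3 factors that rose and 2 that fell, and are shown 5′ to 3′ on the gene's strand with CG dinucleotides in capitals, as examples of the CG content that the next paragraph counts; no difference between groups was tested.
Hand2 (rose; chr8:57320733-57321032, plus strand): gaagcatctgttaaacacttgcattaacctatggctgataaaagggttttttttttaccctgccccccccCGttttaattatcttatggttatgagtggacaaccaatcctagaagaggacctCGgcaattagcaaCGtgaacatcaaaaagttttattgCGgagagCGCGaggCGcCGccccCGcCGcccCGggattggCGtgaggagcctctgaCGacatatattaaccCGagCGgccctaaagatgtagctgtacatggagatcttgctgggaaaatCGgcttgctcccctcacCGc
Gata3 (rose; chr2:9878551-9878850, minus strand): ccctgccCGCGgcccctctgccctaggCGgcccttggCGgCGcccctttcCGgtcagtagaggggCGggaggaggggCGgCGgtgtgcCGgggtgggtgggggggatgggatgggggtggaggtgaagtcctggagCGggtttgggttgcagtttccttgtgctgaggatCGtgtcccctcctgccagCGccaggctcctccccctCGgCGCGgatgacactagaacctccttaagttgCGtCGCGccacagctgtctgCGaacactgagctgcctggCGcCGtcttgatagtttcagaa
Tbx18 (rose; chr9:87731211-87731510, minus strand): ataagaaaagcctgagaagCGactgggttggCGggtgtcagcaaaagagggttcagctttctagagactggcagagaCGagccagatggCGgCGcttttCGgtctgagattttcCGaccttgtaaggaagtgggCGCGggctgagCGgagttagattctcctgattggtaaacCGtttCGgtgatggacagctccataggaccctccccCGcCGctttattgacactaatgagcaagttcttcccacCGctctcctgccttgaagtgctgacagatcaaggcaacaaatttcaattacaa
Eomes (fell; chr9:118477939-118478238, plus strand): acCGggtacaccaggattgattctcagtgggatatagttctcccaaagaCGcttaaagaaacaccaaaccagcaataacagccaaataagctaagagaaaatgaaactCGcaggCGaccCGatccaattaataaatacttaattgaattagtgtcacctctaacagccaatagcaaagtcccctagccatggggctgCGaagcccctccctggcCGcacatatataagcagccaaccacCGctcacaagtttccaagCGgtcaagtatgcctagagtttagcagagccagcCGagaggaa
Tbx6 (fell; chr7:126781233-126781532, plus strand): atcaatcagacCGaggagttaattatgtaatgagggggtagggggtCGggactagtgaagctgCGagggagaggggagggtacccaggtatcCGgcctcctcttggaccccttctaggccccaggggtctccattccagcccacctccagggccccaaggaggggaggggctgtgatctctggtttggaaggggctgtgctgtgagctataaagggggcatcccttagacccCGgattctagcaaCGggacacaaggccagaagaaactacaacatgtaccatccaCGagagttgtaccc

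The Hand2, Gata3 and Tbx18 windows held 17, 22 and 15 CG dinucleotides, and the Eomes and Tbx6 windows held 10 and 7. The median over all 32851 RefSeq windows was 7. Windows of the 5 factors that rose and had one, Tbx20 and Twist1 included, held 15 to 27 CG dinucleotides. Their median was 22. The 7 windows of 5 factors that were not called held 7 to 34, with a median of 26, and the 11 windows of 9 untested factors held 1 to 26, with a median of 7. Of the 9 factors that rose 4 had no window, and of the 3 that fell 1 had none. A high CG count was thus found in factors that rose and in factors that did not, such as Snai1 with 34 and Gata2 with 32 and 29. The windows were also searched on both strands for GATA, the core motif of GATA factors, for CANNTG, the E-box of bHLH factors, and for GGTGTGA, a T-box motif; a CANNTG match can contain a CG. GATA occurred 2 times in the Hand2 window, 1 time each in those of Gata3, Eomes and Tbx6, and not in those of Tbx18, Tbx20 and Twist1. It occurred in 57.9% of all windows. CANNTG occurred 2 times in the Hand2 window and 1 time each in those of Gata3 and Tbx18, against 72.3% of all windows with a match. GGTGTGA was in none of these 7 windows, and in 3.98% of all windows. These letter matches describe the windows and not binding.

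Among T-box factors of mesenchyme and heart, Tbx15, Tbx18 and Tbx20 rose. Tbx15, a factor of limb and skin mesenchyme, was at 3.55, 3.95 and 3.57 CPM in EED-/- and at 1.08, 1.18 and 1.03 CPM in WT replicates 1 to 3. Every EED-/- library was above every WT library, and the spread within each genotype was small. The means of 3.69 ± 0.225 and 1.1 ± 0.0753 CPM (SD, n = 3 each) differ 3.35-fold, or 1.75 on the log2 scale (SE 0.21, adjusted p = 0.000847). Its GRCm38 position is 99240381 to 99354259 on chromosome 3, plus strand. In bulk tissue, more cells of a type and more RNA per cell cannot be told apart.

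Tbx18, a factor of mural cells and of sinus node and ureter mesenchyme, was at 7.10, 8.70 and 6.71 CPM in EED-/- and at 3.08, 3.92 and 3.31 CPM in WT libraries. Its groups did not overlap either, with 1.13 as log2 fold change (SE 0.186, adjusted p = 0.00347). Tbx20, a cardiac factor that is also active in hindbrain motor neurons, was at 1.47, 1.18 and 1.57 CPM in EED-/- and at 0.872, 0.536 and 0.517 CPM in WT libraries. Its log2 fold change was 1.12 (SE 0.318, adjusted p = 0.0327). The Tbx20 call was lost with DESeq2, with a replicate block and without any single library other than WT replicate 1, with adjusted p-values of 0.0598 to 0.122.

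The other T-box factors of mesoderm were not called or could not be tested. Tbx2, a repressor in heart and limb, was at 6.82, 9.55 and 5.48 CPM in EED-/- and at 5.23, 3.59 and 5.27 CPM in WT libraries. The groups were separate, but the log2 fold change of 0.63 (95% interval 0.06 to 1.2) had an adjusted p of 0.0986. Without EED-/- replicate 3 the adjusted p was 0.0498. Its close relative Tbx3 had a log2 fold change of 0.40 (interval -0.10 to 0.89), Tbx4, a factor of the hindlimb, 0.36 (interval -0.52 to 1.23), and Tbx1, a factor of the pharyngeal arches, 0.16 (interval -0.50 to 0.82). Tbx5, a factor of forelimb and heart, had 9, 11 and 16 counts in EED-/- and 3, 1 and 2 counts in WT libraries, too few to pass the filter. With every gene of at least 1 count tested, its adjusted p was 0.00669, and it was 0.0177 to 0.0481 in the 4 left-out-library fits that tested it. In those 4 fits Tbx5 passed the filter only through EED-/- libraries, so its passing favoured a difference.

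Some of these genes are close neighbours in the genome. Tbx3 and Tbx5 are 148 kb apart on chromosome 5, and Tbx2 and Tbx4 44.5 kb apart on chromosome 11. In EED-/- and WT libraries Tbx4 had 73 and 52 counts in all, and Tbx2 had 459 and 271. Mesp1 and Mesp2, which lie 16.9 kb apart on chromosome 7, had 3 and 31 counts in EED-/- and 1 and 20 counts in WT libraries.

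**Figure D2:**
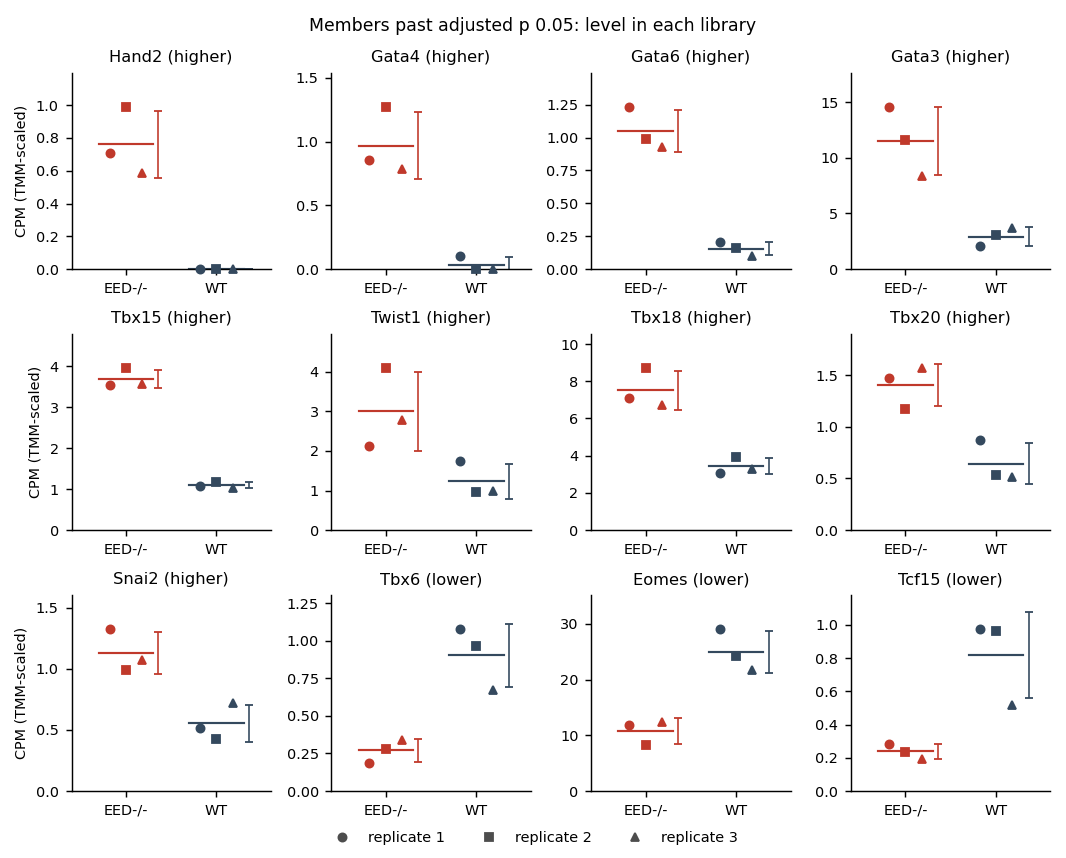
Level of the 12 called factors in each library, in CPM after TMM scaling on linear axes from 0, with EED-/- in red and WT in dark blue; symbols mark replicates, horizontal lines the mean and bars the SD (n = 3). In each panel the EED-/- and WT libraries do not overlap, and Hand2 is at 0 in every WT library.

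Eomes, the T-box factor with the highest level per length in WT cerebellum, fell. It was at 11.9, 8.18 and 12.4 CPM in EED-/- and at 29.0, 24.2 and 21.7 CPM in WT libraries. The highest EED-/- library was well below the lowest WT library, with means of 10.8 ± 2.31 and 25 ± 3.75 CPM (SD, n = 3 each), and -1.2 on the log2 scale (SE 0.189, adjusted p = 0.00278). Its position is 118478212 to 118486132 on chromosome 9, plus strand. Of 8 further markers of unipolar brush cells 3 fell and 0 rose, while 14.1% of all tested genes were called lower. Calb2, a calcium-binding protein also made by granule neurons, was at 109 ± 18.8 CPM in EED-/- and 399 ± 62.0 CPM in WT (SD, n = 3 each; adjusted p = 0.000204). The neuropeptide gene Nmb fell 1.75-fold. The number called lower was 1 without EED-/- replicate 1, EED-/- replicate 2 or WT replicate 1, and likewise with upper-quartile scaling, library size alone or the block. Without WT replicate 1, 1 marker was higher. The summed level of the 8 markers was 585 to 722 CPM in EED-/- and 912 to 1059 CPM in WT libraries. Calb2, which granule neurons also make, held most of that difference. The part of unipolar brush cells in the fall of Eomes was not tested.

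Tbr1, the relative of Eomes in cerebellar nuclei and cortex, did not follow it. It was at 2.46, 1.55 and 2.20 CPM in EED-/- and at 3.03, 1.5 and 1.76 CPM in WT libraries, which overlapped, with a log2 fold change of -0.02 (95% interval -0.75 to 0.72, adjusted p = 0.975). Among 9 other genes that mark cerebellar nuclei, 5 were called higher and 1 lower, against 11.7% higher and 14.1% lower over all tested genes. Without EED-/- replicate 2, EED-/- replicate 3 or WT replicate 3, 3 were higher. Lhx2 and Meis2, homeobox genes, rose 3.74-fold and 2.27-fold, and Meis1, a homeobox gene that granule neurons also express, fell 1.91-fold.

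Tbx6, a factor of presomitic mesoderm, fell, and was already low in WT. It had 4, 6 and 7 counts in EED-/- and 21, 18 and 13 counts in WT libraries, a change of -1.72 on the log2 scale (SE 0.382, adjusted p = 0.0124). Without EED-/- replicate 1 the adjusted p was 0.0657. Its upstream neighbour Ypel3, on the same strand and 968 bases away, was at 69.1 ± 4.65 CPM in EED-/- and 118 ± 11.5 CPM in WT (SD, n = 3 each; log2 fold change -0.77, adjusted p = 0.00232). Gm9967, on the other strand beyond Ypel3, also fell (log2 fold change -1.78, adjusted p = 0.0374), while Ppp4c on the other side was not called (-0.32, adjusted p = 0.164). The remaining T-box factors were near absence. Tbx21, a factor of T helper cells, had 9 counts in EED-/- and 15 in WT libraries, and Tbx22, a factor of the palate, 1 and 2. Tbx19, the corticotroph factor of the pituitary, had 0 counts in all libraries, which allows up to 3 counts over each group.

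The GATA factors held the largest rises beside Hand2, with Gata3, Gata4 and Gata6 higher in EED-/- and none lower. Gata3 was the most abundant of these 3, at 14.5, 11.6 and 8.37 CPM in EED-/- and at 2.05, 3.06 and 3.67 CPM in WT libraries. Even the lowest EED-/- library was above the highest WT library, and the EED-/- libraries varied among themselves. The means of 11.5 ± 3.08 and 2.93 ± 0.817 CPM (SD, n = 3 each) differ 3.93-fold, or 1.97 on the log2 scale (SE 0.273, adjusted p = 0.00158). Its position is 9857078 to 9890034 on chromosome 2, minus strand.

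Gata2, which acts beside Gata3 in midbrain and hindbrain neurons, was not called. It was at 8.24, 8.94 and 8.08 CPM in EED-/- and at 6.41, 4.61 and 7.70 CPM in WT libraries. The groups were separate by a small margin, and the log2 fold change was 0.43 (95% interval -0.03 to 0.89, adjusted p = 0.154). Whether Gata2 and Gata3 differ in their change was not tested.

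Of 12 tested genes of the neurons in which Gata2 and Gata3 act, 5 rose and 0 fell. Higher calls made up 11.7% of all tested genes. Tal1, the bHLH partner of GATA factors, was at 17.1 ± 3.09 CPM in EED-/- and 4.57 ± 1.13 CPM in WT (SD, n = 3 each; adjusted p = 0.000753). Sox14, a transcription factor gene of GABAergic neurons, rose 5.16-fold and Ddc, an enzyme of monoamine synthesis, 2.05-fold. Genes of serotonin neurons, which lie in the brainstem, differed between libraries of 1 genotype. Slc6a4, the serotonin transporter, had 434, 695 and 348 counts in EED-/- and 541, 32 and 313 counts in WT replicates 1 to 3. Tph2, the enzyme of serotonin synthesis, likewise had 342, 507 and 354 counts in EED-/- and 363, 36 and 285 in WT libraries. Without WT replicate 2, which was low in both, Gata3 had a log2 fold change of 2.0 (adjusted p = 0.00375) and Gata2 of 0.25 (adjusted p = 0.341). The part of brainstem tissue in the Gata2 and Gata3 values was not tested. Both genes were picked with their values in view. T cells also express Gata3. The T cell gene Cd3e had 2, 5 and 3 counts in EED-/- and 2, 4 and 1 counts in WT libraries. The 12 T and NK cell markers summed to 1.69 to 2.18 CPM in EED-/- and 1.23 to 1.71 CPM in WT.

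Gata4 and Gata6, paired in heart and gut development, were close to absent in WT cerebellum. Gata4 had 18, 27 and 16 counts in EED-/- and 2, 0 and 0 counts in WT libraries. Every EED-/- library was above every WT library. The ratio of the summed counts was 27.9, with a 95% counting interval of 7.4 to 236, and the adjusted p was 0.00297. Gata6 had 26, 21 and 19 counts in EED-/- and 4, 3 and 2 counts in WT libraries, which also stood apart (log2 fold change 2.70, SE 0.389, adjusted p = 0.00191). Gata4 lies on chromosome 14 at 63198922 to 63271692 and Gata6 on chromosome 18 at 11052064 to 11085635. Counting intervals and bounds cover counting error only.

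Gata1 and Gata5 gave little signal. Gata1, a factor of red cells, megakaryocytes and mast cells, had 2, 2 and 6 counts in EED-/- and 0, 1 and 0 counts in WT libraries, a ratio of 9.15 with a counting interval of 1.30 to 397. Erythroid markers, mostly globins, were highest in EED-/- replicate 1 and lowest among EED-/- libraries in replicate 3, summing to 1783, 1267 and 362 CPM in EED-/- and 559, 258 and 314 CPM in WT replicates 1 to 3. None of the 6 tested was called by edgeR; all 6 were higher in EED-/- in the fit but had adjusted p-values of 0.0763 or more. DESeq2 called 2 of them higher. By edgeR, leaving out EED-/- replicate 3 gave 5 higher calls, leaving out EED-/- replicate 2 gave 2, and leaving out WT replicate 2 gave 1. Mast cell proteases followed another order: Mcpt4 had 3, 6 and 12 counts in EED-/- and 0 in every WT library, and Cma1 had 3, 2 and 11 and again 0. Both were picked with their values in view. Of 2 tested mast cell and megakaryocyte markers, Itga2b and Pf4 rose, and 0 were called without EED-/- replicate 2 or WT replicate 3. Only 1 was called without EED-/- replicate 1, WT replicate 1 or WT replicate 2. The share called higher over all tested genes was 11.7%. The part of these cells in the Gata1 counts was not tested. Gata5 had 0 counts in all libraries.

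Among bHLH factors, Hand2 and Twist1 rose and Tcf15 fell. Hand2, a factor of heart, limb and sympathetic neurons, had 15, 21 and 12 counts in EED-/- and 0 counts in each WT library. The groups were fully separate. Hand2 was at least 14.6-fold higher in EED-/-, with 0 counts over all WT libraries set to the floor of 3 (adjusted p = 0.00228). Its relative Hand1, a factor of heart and trophoblast, had 2 counts in EED-/- and 1 in WT libraries. The GRCm38 position of Hand2 is 57320983 to 57324633 on chromosome 8, plus strand. The antisense transcript Hand2os1 overlaps it and had 4, 4 and 5 counts in EED-/- and 0, 3 and 0 counts in WT libraries, a ratio of 3.97 (counting interval 1.09 to 21.7). Strand-specific counting is not stated, so reads of the overlap cannot be assigned to either gene with certainty.

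Twist1, a factor of cranial mesenchyme and neural crest, was at 2.13, 4.09 and 2.79 CPM in EED-/- and at 1.74, 0.966 and 0.982 CPM in WT libraries. Replicate 2 was the highest EED-/- library, and the groups did not overlap (log2 fold change 1.28, SE 0.342, adjusted p = 0.0257). The call was lost without EED-/- replicate 2 (log2 fold change 0.99, adjusted p = 0.0968), without WT replicate 2 or 3 (0.0598 and 0.0985) and with the block (0.0524). Twist2, a factor of dermis, had 13, 4 and 6 counts in EED-/- and 5, 1 and 3 in WT libraries and could not be tested. Gm29100, on the opposite strand at the Twist2 start, had 29 counts in EED-/- and 6 in WT libraries. Reads of this overlap too cannot be assigned with certainty.

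Tcf15, a factor of somites and of brain capillary endothelium, had 6, 5 and 4 counts in EED-/- and 19, 18 and 10 counts in WT libraries. All EED-/- libraries were lower (log2 fold change -1.75, SE 0.409, adjusted p = 0.0152). The call was lost with DESeq2 and without any single EED-/- library or WT replicate 1, with adjusted p-values of 0.0501 to 0.0617. Of 12 endothelial markers 2 were higher and 0 lower, while 11.7% of all tested genes were called higher. The markers summed to 513 to 593 CPM in EED-/- and 487 to 576 CPM in WT libraries. Kdr and Tek, receptors of endothelial growth signals, were at log2 fold changes of 0.47 and 0.42; neither was called with the block or without EED-/- replicate 1, EED-/- replicate 2 or WT replicate 3. The part of endothelial cells in the Tcf15 values was not tested.

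The other bHLH factors were not called or had few counts. Scx, the tendon factor, was at 1.66, 2.16 and 2.35 CPM in EED-/- and at 3.18, 2.15 and 2.43 CPM in WT libraries (log2 fold change -0.33, 95% interval -0.90 to 0.24). Scx lies within Bop1 on the opposite strand, which had 2106 and 1973 counts in EED-/- and WT libraries, so the Scx counts are uncertain. Msc, a repressor of muscle genes, had a log2 fold change of 0.07 (interval -0.73 to 0.87). Tcf21, a factor of epicardium and kidney, had 5 counts in EED-/- and 8 in WT libraries. Of 9 tendon and cartilage genes 4 rose and 1 fell, led by Fmod, which is also on the meningeal list, with Acan 1.93-fold and Thbs4 2.76-fold. Over all tested genes 11.7% were called higher and 14.1% lower. The fall of Tnc was not called with upper-quartile scaling, with library size only, with the block, or without EED-/- replicate 1, EED-/- replicate 3, WT replicate 1 or WT replicate 3.

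Among zinc finger factors Snai2 passed the threshold narrowly and Osr1 missed it narrowly. Snai2, a repressor of epithelial genes in neural crest, was at 1.33, 0.988 and 1.08 CPM in EED-/- and at 0.513, 0.429 and 0.724 CPM in WT libraries, without overlap (log2 fold change 1.02, SE 0.323, adjusted p = 0.0489). The call was lost in 9 of 12 alternatives, which include leaving out any 1 library, with adjusted p-values up to 0.182. Osr1, a factor of intermediate mesoderm, was at 3.41, 6.96 and 3.03 CPM in EED-/- and at 2.26, 2.31 and 2.12 CPM in WT libraries. The groups were separate and EED-/- replicate 2 stood above the others (log2 fold change 1.0, SE 0.327, adjusted p = 0.0533). Osr1 passed in 6 of 12 alternatives, DESeq2 among them (adjusted p = 0.0265).

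Snai1, the close relative of Snai2, overlapped between genotypes, at 0.710, 1.36 and 1.13 CPM in EED-/- and 1.03, 0.805 and 0.310 CPM in WT libraries (log2 fold change 0.58, 95% interval -0.45 to 1.6). Wt1, a factor of kidney and gonad, had 11, 10 and 22 counts in EED-/- and 7, 0 and 0 counts in WT libraries. It was tested only in alternatives that changed which genes passed the filter. Its adjusted p was 0.0089 without WT replicate 1, 0.143 with every gene of at least 1 count, and 0.142 to 0.221 without EED-/- replicate 2, WT replicate 2 or WT replicate 3. WT replicate 1 was the only WT library with Wt1 counts. In the fits with a library left out Wt1 passed the filter only through EED-/- libraries, which favoured a difference. Osr2, a factor of the palate, had 6, 9 and 7 counts in EED-/- and 3, 4 and 5 in WT libraries. Every EED-/- library was thus above every WT library in 16 of the 35 factors and below in 3. Among the 22 tested factors these numbers were 12 and 3. Among all tested genes 20.1% had every EED-/- library above every WT library, and 43.9% had groups apart in either direction.

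**Figure D3:**
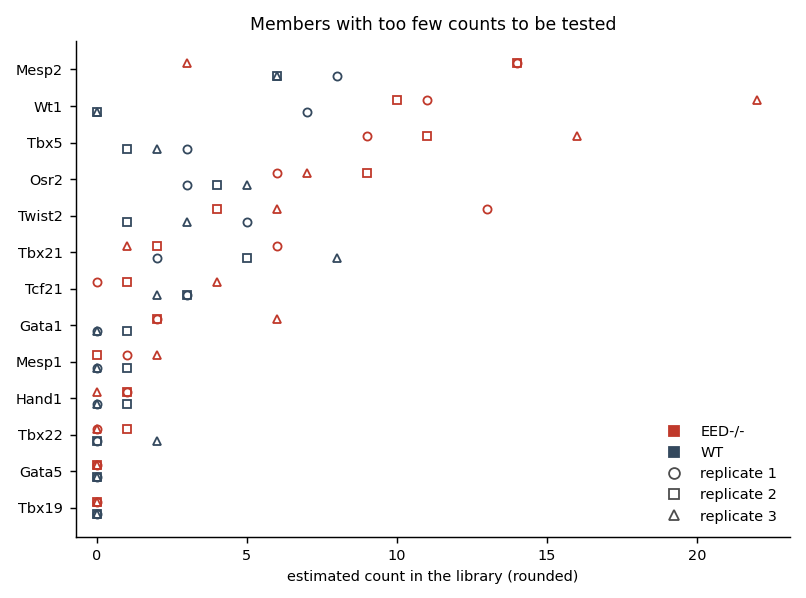
Rounded estimated counts of the 13 factors that could not be tested, 1 symbol per library, with EED-/- in red above WT in dark blue and symbols for replicates. Tbx5, Wt1, Osr2 and Gata1 have every EED-/- library above every WT library, and Gata5 and Tbx19 are at 0 throughout.

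Markers of mesenchymal cells of the meninges and vessel walls were read beside the factors. Of 14 meningeal fibroblast markers 13 rose and 0 fell, and none was at 0, while 11.7% of all tested genes were called higher. The collagen gene Col3a1, the anion transporter gene Slc22a6 and Fmod, a matrix proteoglycan gene, rose 2.71-fold, 2.62-fold and 2.61-fold. The list summed to 968, 1453 and 960 CPM in EED-/- and to 649, 589 and 582 CPM in WT replicates 1 to 3. EED-/- replicate 2 was the highest library for this sum. Among the 9 factors that rose it was also the highest for Gata4, Hand2, Tbx15, Tbx18 and Twist1, and it was not for Gata3, Gata6, Tbx20 and Snai2. Among tested factors that were not called it was the highest for Tbx2, Tbx3, Tbx4, Gata2, Msc, Osr1 and Snai1, and it was not for Tbx1, Tbr1 and Scx. How often EED-/- replicate 2 was the highest library over all tested genes was not counted. A link between these factors and the meningeal sum was not tested. Without EED-/- replicate 2 Gata4, Hand2, Tbx15 and Tbx18 were called and Twist1 was not (adjusted p = 0.0968), while Osr1 had a log2 fold change of 0.53 (adjusted p = 0.165).

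Of 12 mural cell markers 4 rose and 0 fell, with sums of 516 to 627 CPM in EED-/- and 373 to 401 CPM in WT libraries. Over all tested genes 11.7% were called higher. Smooth muscle actin Acta2 rose 1.90-fold, and Cspg4 and Notch3 1.59-fold and 1.58-fold. Without EED-/- replicate 2 or WT replicate 3, 1 was higher, and with upper-quartile scaling 8 were. Other cell types moved with genotype too. Of 8 microglia markers 6 rose and 0 fell, with sums of 307 to 346 CPM in EED-/- and 175 to 189 CPM in WT libraries. Cx3cr1, a chemokine receptor gene, rose 1.93-fold and the complement gene C1qa 1.72-fold. The 10 granule neuron markers summed to 513 to 733 CPM in EED-/- and 4673 to 5779 CPM in WT libraries. The part of these cell types, and of the change in cell shares, in the rises and falls of the factors was not tested. The 20 list sums were compared by exact two-sided permutation tests over the libraries, in which 3 against 3 cannot go below p = 0.1. This smallest p was reached by 15 sums (0.133 after Benjamini-Hochberg adjustment). It needs only that the groups do not overlap, which held for 43.9% of all tested genes, so these tests decide nothing about the lists.

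**Figure D4:**
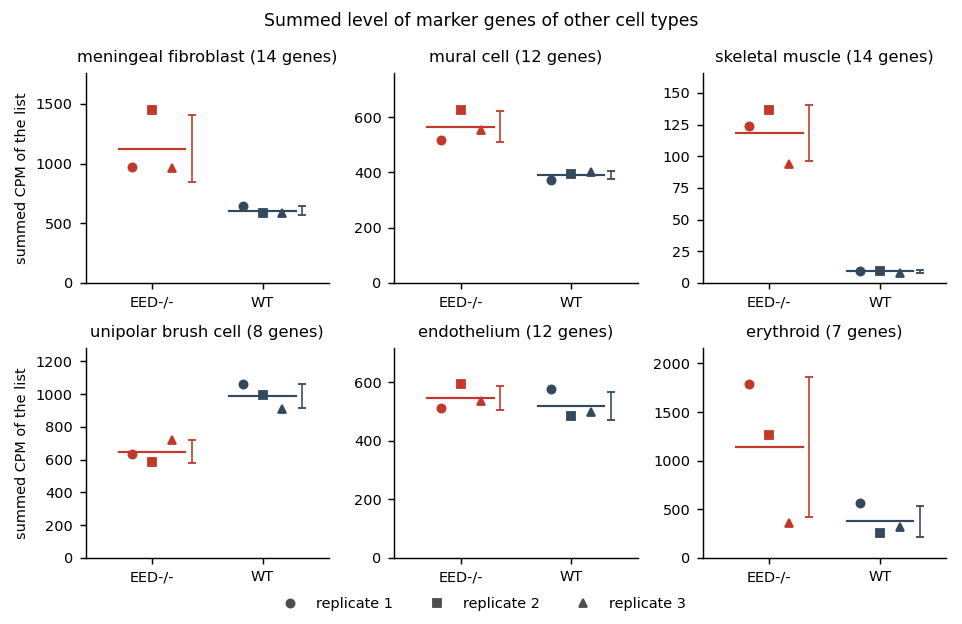
Summed CPM of 6 marker lists in each library, on linear axes from 0, with EED-/- in red and WT in dark blue; symbols mark replicates, lines the mean and bars the SD (n = 3). Meningeal, mural and skeletal muscle sums are higher in every EED-/- library, unipolar brush cell sums are lower, and endothelial and erythroid sums overlap. Most of the difference in the unipolar brush cell sum lies in Calb2, which granule neurons also make.

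Muscle genes were read beside the cardiac factors, and a link between them was not tested. Of 11 tested genes of cardiac muscle 8 rose and 1 fell, against 11.7% higher and 14.1% lower over all tested genes. The sum over the cardiac list was lower, at 180 to 204 CPM in EED-/- and 217 to 244 CPM in WT libraries. Tnnt2, Myl3 and Myl4, sarcomere genes that fetal or slow skeletal muscle also uses, were 12.9-fold, 18.5-fold and 6.53-fold higher. The gene that fell was Ryr2, a calcium release channel that neurons express strongly, at 133 CPM in EED-/- and 215 CPM in WT. The atrial light chain Myl7 had 0 counts in all libraries, and Tnni3, the cardiac troponin I, was at 1.2 CPM in EED-/- and 1.08 CPM in WT (log2 fold change 0.15, adjusted p = 0.779). Skeletal muscle markers rose in 11 of 12 tested cases and fell in 0, with sums of 93.9 to 137 CPM in EED-/- and 8.01 to 9.71 CPM in WT libraries. Myh8, Acta1 and Tnnt1 rose 69.1-fold, 12.8-fold and 19.8-fold.

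Partners of the factors moved in both directions, while over all tested genes 11.7% were called higher and 14.1% lower. Of 16 tested partners of T-box and GATA factors 7 rose and 4 fell. Zfpm2, the GATA cofactor FOG2, was at 26.7 ± 1.66 CPM in EED-/- and 71.9 ± 5.94 CPM in WT (SD, n = 3 each; adjusted p = 0.000122), and Cbfa2t3, a corepressor of Tal1 complexes, fell 3.09-fold. Tal1 itself rose, as given above. Of 10 partners and inhibitors of bHLH factors 1 rose and 2 fell, near the shares over all tested genes. Bhlha9, a bHLH factor of the limb bud, was at 0.811 CPM in EED-/- and 4.13 CPM in WT (adjusted p = 0.000581). The E protein Tcf4 fell 1.64-fold and the bHLH gene Tcf24 rose 8.63-fold. Without EED-/- replicate 1, EED-/- replicate 3 or WT replicate 3, 1 gene was called lower.

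Of 27 tested mesodermal and neural crest factors outside the 35, 13 rose and 1 fell. Pax7, of neural crest and dorsal neural tube, rose 4.56-fold and Eya1, a coactivator of homeobox factors, 2.46-fold. The gene that fell was Msx2, a homeobox gene of skull and limb, at 1.59 ± 0.263 CPM in EED-/- and 7.52 ± 1.38 CPM in WT (SD, n = 3 each; adjusted p = 0.000342). Of 15 genes of epithelial to mesenchymal transition 5 rose and 2 fell, while over all tested genes 11.7% were called higher and 14.1% lower. The matrix protease Mmp2 rose 3.0-fold and the growth factor Tgfb2 1.62-fold, while Ocln, which encodes a tight junction protein, fell 1.63-fold. Higher genes numbered 3 without EED-/- replicate 1, EED-/- replicate 2 or WT replicate 3, and 9 with upper-quartile scaling.

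Transcripts next to the factors were read by a fixed window. Within 5000 bases of 26 of the factors 41 further annotated genes lay, 16 of them with at least 10 counts. Of 8 tested 0 rose and 3 fell, while 14.1% of all tested genes were called lower. The neighbours that fell were Ypel3 and Gm9967 beside Tbx6, and Mroh1 beside Scx (log2 fold change -0.39, adjusted p = 0.0345). D030062O11Rik overlaps the start of Tbx18 on the opposite strand. It had 9, 18 and 11 counts in EED-/- and 0, 1 and 0 counts in WT libraries, a ratio of 34.8 with a counting interval of 5.88 to 1409. Since strand-specific counting is not stated, reads of the overlap cannot be assigned to either gene with certainty. 9230102O04Rik, on the same strand as Gata3 and within its annotated span, had 6, 8 and 9 counts in EED-/- and 0, 3 and 2 in WT libraries. Tbx3os1, antisense at the Tbx3 start, was at 2.20 CPM in EED-/- and 1.28 CPM in WT (log2 fold change 0.79, adjusted p = 0.118). Its overlap with Tbx3 has the same limit.

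Divided by exon length, the order of the factors differed between genotypes. In EED-/- cerebellum Gata3 led with 2.89 ± 0.775 CPM per kb of exon, then Eomes with 2.61 ± 0.556, Osr1 with 2.16 ± 1.05, Tbx2 with 2.01 ± 0.572 and Twist1 with 1.85 ± 0.613 (SD, n = 3). These neighbours lie within each other's spread. In WT cerebellum Eomes led with 6.01 ± 0.903 CPM per kb, then Tbx2 with 1.30 ± 0.264, Scx with 1.29 ± 0.266, Gata2 with 1.16 ± 0.287 and Osr1 with 1.08 ± 0.0472. Eomes stood clear of the rest there, and the 4 below it lay within their spread. Gata3 was at 0.736 ± 0.205 CPM per kb in WT.

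Among the 35 factors, 9 had an adjusted p under 0.05 in the authors' deposited table, where 12.7% of all genes with a p-value did. They were Gata3, Tbx15, Tbx18, Hand2, Gata4, Gata6, Twist1 and Osr1, all higher, and Eomes, lower. The authors' deposited table gave Osr1 a log2 fold change of 1.03 (adjusted p = 0.0400), and Tbx6, Tcf15, Tbx20 and Snai2 adjusted p-values of 0.0659, 0.0794, 0.117 and 0.205. The 7 factors Tbx15, Tbx18, Gata3, Gata4, Gata6, Hand2 and Eomes were called in that table, in the edgeR fit and in all 12 of its alternatives.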

How the data were processed

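RNA-seq of 3 EED-/- and 3 WT cerebellum libraries was analysed; groups and replicate numbers came from the titles. Per the submitters' processing notes, Salmon 1.1.0, Trimmomatic 0.36 and DESeq2 1.26.0 were used, beside MACS2 and Bowtie2 2.4.1, with builds GRCm38 and mm10, with no role given. The deposited values are expected counts per gene, unscaled (22.5% to 23.6% not whole to within 1e-06), an estimate in which reads shared by similar genes can be divided among them. The authors' deposited table of differences holds log2 fold changes, their standard errors, p-values and adjusted p-values per gene; the column names are those DESeq2 writes, per the file headers, and the 20212 genes with no p-value, listed there with an adjusted p of 1, were taken as having none.

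Counts were rounded and filtered with filterByExpr (18091 of 35196 genes with a count). They were scaled by TMM and tested two-sided with edgeR 4.0.16 in R 4.3.3 (estimateDisp, glmQLFit, glmQLFTest, robust; genotype the only term). Benjamini-Hochberg adjustment ran over all tested genes, with 0.05 as the threshold, and DESeq2 1.42.0 was an alternative test. The SE was taken as |log2 change| over the root of the F statistic. The procedure was run on simulated counts with the same dispersion for every gene. Changed genes were drawn only from those above a count minimum, so the run does not cover factors with few counts. Between replicates of a genotype, chi-square over its degrees of freedom was 8.36 to 55.2, above counting noise. With 3 libraries per genotype, factors under 1 CPM rest on few counts. Intervals of count ratios are exact conditional binomial (95%).

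Positions and exon lengths came from GENCODE M21 (GRCm38), matched for all 35 factors by unversioned Ensembl identifier; promoter windows came from RefSeq (GRCm38.p6). The factors, the 20 lists (244 genes) and the tests were chosen with earlier results of these data known, so no count over them is independent support. All 35 factors are accounted for; from each list used, up to 3 called genes with the smallest adjusted p were named, or the count alone was given. Any further list gene in the text was picked with its values in view. The values of 2 called list genes are not reported here.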

Additional observations from a re-analysis of the deposited data

How the results depend on the processing

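The 12 alternatives were RLE factors, upper-quartile scaling, no scaling beyond library size, every gene with at least 1 count, DESeq2, a replicate block and leaving out each library. Of 264 values of tested factors under them, 231 kept their side of the threshold, 26 lost and 7 gained a call, and 0 changed direction while called. The number of factors called higher was 9, and 6 to 10 over the alternatives; 3 were lower, and 1 to 3 over those that left out a library (1 without EED-/- replicate 1). The median log2 change of the tested factors was 0.60, and 0.39 to 0.99 with a library left out, lowest without EED-/- replicate 2. Over all genes higher calls numbered 2125, and 1205 to 2176 with a library left out; lower calls numbered 2544, and 1335 to 2476. Fewer libraries lower the power of each fit. The median log2 change of all tested genes was -0.03; it was 0.0020 with RLE factors, 0.0020 with DESeq2, 0.0897 with upper-quartile scaling, 0.0727 when only library size was used, -0.0023 with every gene of at least 1 count, -0.0224 with the block, and -0.0286 to 0.0225 with a library left out. The cause was not tested.

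With replicate numbers as a block, 1505 genes were higher and 1706 lower, and 6 factors were higher and 3 lower. The numbers share no stated litter or day. Deviations of same-numbered libraries correlated at -0.23 to 0.03 and those of other pairs at -0.19 to 0.20. With 3 libraries per genotype, deviations from the group mean are tied to each other. These values therefore cannot decide whether the numbers pair the libraries. Depth limits the 13 factors that were not tested and those near 10 counts a library.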
